A study of Zea mays with 15 samples.

Results

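Of 39145 maize genes with counts, 59 had similar mean levels in the first and the second centimetre of the growing leaf in control plants, within the limits below, and a higher level in the third centimetre. They were chosen from the control libraries by mean CPM (the reads of a gene per 1000000 reads of its library), with 1 CPM added to each mean. The zone 3 mean had to be at least 10, the zone 2 mean 0.67 to 1.5 times the zone 1 mean, and the zone 3 mean at least 4 times the zone 2 mean. In addition, the lowest control zone 3 library had to exceed the highest control zone 2 library. All 59 genes were kept, since the upper limit of 150 was not reached. The number depends on the control zone 2 libraries: without replicate 2 of that group 98 genes met the rule, 44 of them among the 59, and without its replicate 3, 92 genes, 46 of them among the 59. They belong to 272 genes that met the zone 2 to zone 3 conditions. Of the others, 201 had already risen more than 1.5 times from zone 1 to zone 2, and 12 had fallen.

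RNA was taken from leaf 4 of the inbred line B73, 3 days after the leaf emerged, from field-grown plants under plastic filters. The 3 zones are neighbouring 10-mm segments that start at the leaf base (0 cm, zone 1), at 1 cm (zone 2) and at 2 cm (zone 3). The control filter left 0.35 W/m2 of UV-B, so the control plants also received some, and the filter of the UV-B groups left 1.5 W/m2. UV-A was 8 W/m2 in all plants. The control groups held 3 libraries of zone 1, 2 of zone 2 (replicates 2 and 3) and 3 of zone 3, and the UV-B groups held 1 of zone 1 (replicate 3), 3 of zone 2 and 3 of zone 3. Each segment contains all leaf tissues, so a higher level may come from more cells of a type or from more RNA per cell, which cannot be told apart.

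A maize leaf grows from its base. Cells divide next to the base, then expand, and then take on the walls and chloroplasts of the mature blade, so distance from the base stands for cell age. In the mature blade, mesophyll and bundle sheath cells share C4 photosynthesis, in which carbon is first fixed into a C4 acid and then released beside Rubisco.

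One UV-B zone 3 library (replicate 1) held 728 reads and was left out of the fits and means. The other 14 held 1673416 to 19221143 reads, and 3 reads, taken as the limit of detection, were worth 0.156 to 1.79 CPM. The lowest depth was that of UV-B zone 3 replicate 3. The zones carried the labels' order in RNRL2 and ssu1, though not in every marker looked at. RNRL2, a subunit of the enzyme that makes deoxyribonucleotides for DNA synthesis, stood at 117 to 153 CPM in the zone 1 libraries and at 7.77 to 16.4 CPM in zone 3. The Rubisco small subunit gene ssu1 stood at 3.50 to 13.4 CPM in zone 1 and at 237 to 504 CPM in zone 3. Of the other photosynthesis markers, FDX1 and psad1 also rose along the control zones. The gene me3 (NADP-ME) did not, with means of 12.3, 6.88 and 5.84 CPM in control zones 1, 2 and 3.

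In the control leaf the summed level of the 59 genes was 163 to 295 CPM in the zone 1 libraries, 242 and 246 CPM in zone 2, and 3472, 1644 and 3077 CPM in zone 3 replicates 1, 2 and 3. These values were set by the choice of the genes and are given without a test. A gene that is off before zone 3 was the exception. Only 17 of the 59 were under 1 CPM in all 5 control libraries of zones 1 and 2, and 7 had no read in any control zone 1 library. The most abundant member, GRMZM2G042181, had 85.7, 83.7 and 65.7 CPM in control zone 1, 61.9 and 111 CPM in zone 2, and 495, 560 and 754 CPM in zone 3. It was therefore well expressed in every zone and 6.89 times higher in zone 3 than in zone 2. This gene was chosen for description after its values were seen. The 1 CPM added to each mean also hid differences between zones 1 and 2 at low levels. Without it, 32 members kept a zone 2 to zone 1 ratio of 0.67 to 1.5, 25 were above 1.5 and 2 were below 0.67. Of those 25, 16 had means under 1 CPM in both zones.

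**Figure D1:**
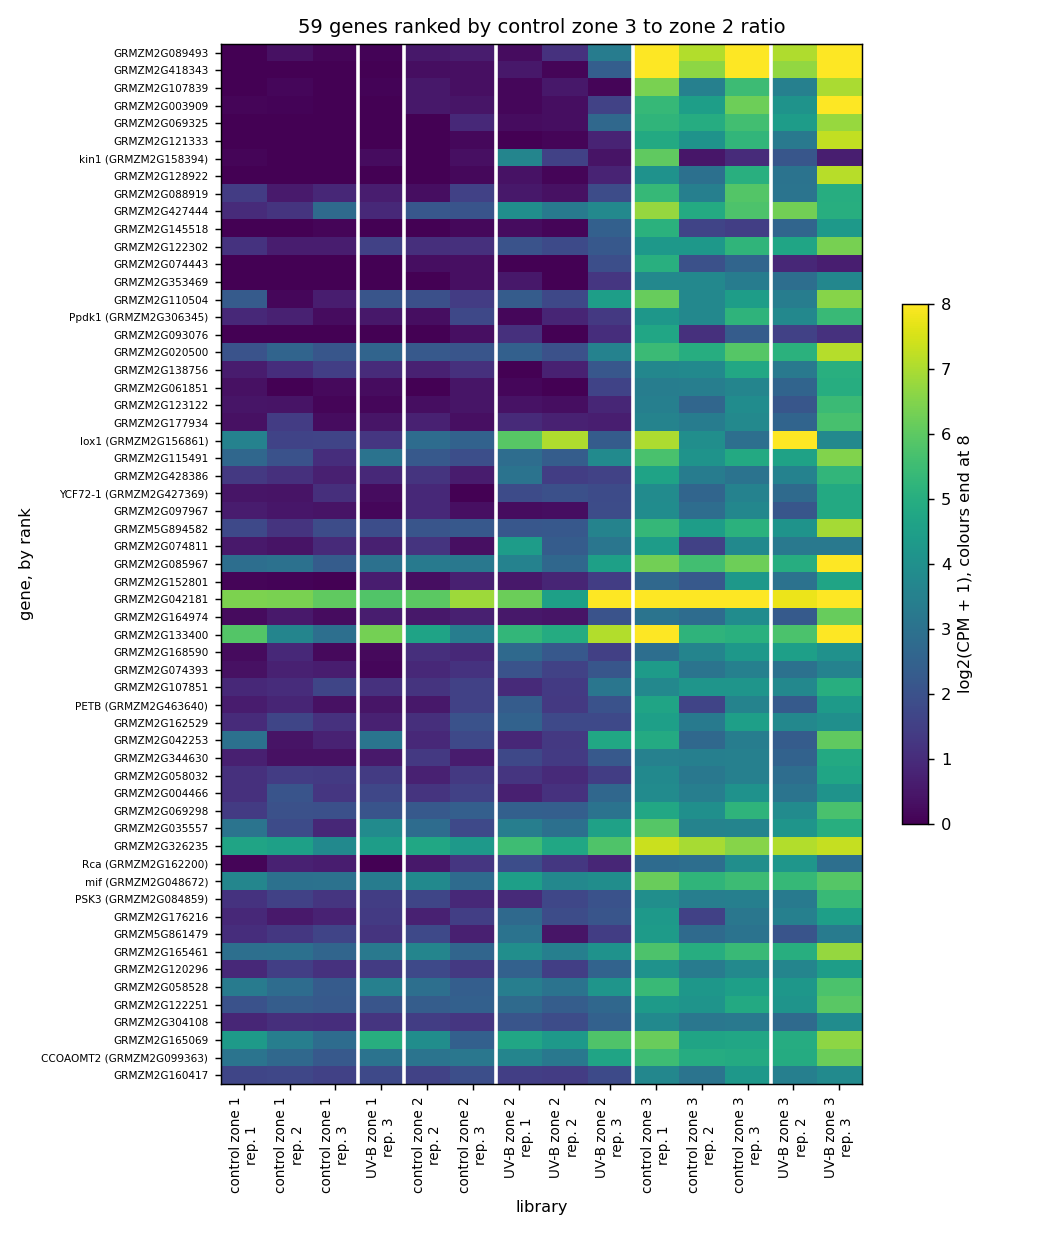
Level of each of the 59 genes (rows, ranked by the control zone 3 to zone 2 ratio) in the 14 usable libraries (columns), as log2(CPM + 1); white lines separate the groups and colours stop at 8. The control zone 3 columns are bright by the choice of the genes. The UV-B zone 3 columns were not used in that choice, and replicate 3 is brighter than replicate 2 in 52 of 59 rows.

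The steepest rises came from genes that the deposited table does not name. GRMZM2G089493 had 0, 0.279 and 0.0707 CPM in the control zone 1 libraries, 0.438 and 0.510 CPM in zone 2, and 425, 135 and 609 CPM in zone 3, a ratio of 265. In UV-B plants it had 0.0520 CPM in zone 1, 0.211, 1.22 and 9.23 CPM in zone 2, and 131 and 2209 CPM in zone 3 replicates 2 and 3. All 5 zone 3 libraries lay above every library of the other zones, which the choice had fixed for control zone 3 against control zone 2. GRMZM2G418343 followed the same course. It had no read in any zone 1 library, 0.0720 to 4.24 CPM in the 5 zone 2 libraries, and 98.9 to 384 CPM in control zone 3 against 102 and 1109 CPM under UV-B. These were the only 2 members with a control zone 3 to zone 2 ratio above 35, and the third, GRMZM2G107839, had 34.5.

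The next members in rank had much lower levels. GRMZM2G107839, GRMZM2G003909, GRMZM2G069325, GRMZM2G121333 and GRMZM2G128922 were each under 1 CPM in the 5 control libraries of zones 1 and 2 and had 6.82 to 82.2 CPM in control zone 3. Under UV-B they had 7.29 to 20.6 CPM in zone 3 replicate 2 and 109 to 250 CPM in replicate 3, so the replicates differed by 5.09 to 17.1 times on the CPM + 1 scale. GRMZM2G088919, also in the first 10, had 30.5 CPM in UV-B zone 3 replicate 3 and 7.5 CPM in replicate 2.

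Among the members with a name, 3 belong to photosynthesis by name. Ppdk1, pyruvate phosphate dikinase, which regenerates the acceptor of the first C4 fixation step, had 0.897, 0.67 and 0.212 CPM in control zone 1, 0.219 and 2.30 CPM in zone 2, and 17.9, 12.3 and 36.2 CPM in zone 3. Under UV-B it had 0.106, 0.792 and 1.50 CPM in zone 2 and 12.2 and 41.8 CPM in zone 3. Its UV-B zone 2 and zone 3 libraries were apart, while those of the control were apart by the choice of the genes.

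Rca, Rubisco activase, which frees Rubisco of bound inhibitors, had 5.98, 6.43 and 14.6 CPM in control zone 3 and 17.4 and 6.57 CPM in UV-B zone 3. Its UV-B zone 2 libraries had 2.75, 1.44 and 0.832 CPM. Rca was one of the members whose highest UV-B zone 3 library was replicate 2 and not replicate 3. PETB carries the name of the plastid gene for cytochrome b6 of the electron transport chain. The deposited table places it on chromosome 5 at 21522921 to 21524744. It had 24.4, 2.14 and 10.9 CPM in control zone 3, and 3.86 and 19.7 CPM in UV-B zone 3 against 1.51 to 4.01 CPM in UV-B zone 2, where the groups overlapped.

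Of the 38 genes on the photosynthesis list, matched by symbol, 35 were tested and these 3 are members. With no CPM added, the control means of these 3 were also higher in zone 2 than in zone 1, at 0.593 and 1.26 CPM for Ppdk1, 0.442 and 0.920 CPM for Rca, and 0.534 and 1.18 CPM for PETB. For 3 other genes of the list, chosen after their values were seen, the course differed in size or direction. The PEP carboxylase gene pep1 averaged 0.480, 1.89 and 17.1 CPM in control zones 1, 2 and 3, the ferredoxin gene fdx2 averaged 0.135, 1.18 and 27.1 CPM, and a second pyruvate phosphate dikinase gene, GRMZM2G097457, averaged 4.32, 0.237 and 0.0536 CPM. By DESeq2, 12 of the 35 were higher and 0 lower in UV-B zone 3 than in UV-B zone 2, with Ppdk1 and Rca among the 12, against 3.64% of all genes with an adjusted p that were higher. By edgeR 0 were called, and the median log2 difference was 1.54 against -0.06 over all genes tested. The list also holds genes that carry names of plastid genes, such as PETB, PETD and PSBZ. The share of plastid transcripts in their reads was not tested.

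Of the 24 genes on the list of the secondary wall and lignin, 12 were tested and 1 is a member. CCOAOMT2, a caffeoyl-CoA O-methyltransferase named for a methylation step on the way to lignin, lay just inside the limit, with a control ratio of 4.03. It had 44.3, 29.8 and 28.6 CPM in control zone 3 and 3.68 to 8.04 CPM in control zones 1 and 2. Under UV-B it had 11.5, 8.14 and 24.7 CPM in zone 2 and 29.2 and 72.9 CPM in zone 3, with no overlap. By DESeq2, 4 of the 12 list genes were higher in UV-B zone 3 than in UV-B zone 2 and 0 lower, against the same 3.64%, with CCOAOMT2, ccoaomt1, comt and PAL1 as the 4, and by edgeR 0 were called. The other 3 already averaged 55.2 to 155 CPM in control zone 1. The list did not move as a group. In the control leaf the cesa11 entries, CesA12, cad1, Laccase-17, lac5 and ccr2 averaged less in zone 3 than in zone 2, and CAD2 more. CesA12 went from 4.18 to 0.848 CPM and cad1 from 43.5 to 21.7 CPM. Under UV-B cad1 went from 38.4 to 16.5 CPM, while the cesa11 entry GRMZM2G037413 went from 1.84 to 5.98 CPM. The median edgeR log2 difference of the list was 0.756. The lists for wall loosening, cuticle, transporters, transcription factors, oxidative and glycosyl transfer enzymes, defence, hormones, kinases, proteases, sugar and starch, and nitrogen held no member. As 50 of the 59 members have no name, these counts cover few of them.

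Of the other named members, PSK3, named after the secreted peptide hormone phytosulfokine, had 14.4, 9.74 and 9.96 CPM in control zone 3, and 8.57 and 41.2 CPM in UV-B zone 3 against 0.950 to 3.08 CPM in UV-B zone 2. The gene named mif had 70.7, 36.6 and 43.6 CPM in control zone 3, and 40.3 and 58.6 CPM in UV-B zone 3 against 12.2 to 21.7 CPM in UV-B zone 2. In both genes the UV-B zone 3 libraries lay above the UV-B zone 2 libraries.

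The gene lox1, a lipoxygenase, which adds oxygen to unsaturated fatty acids, varied widely between replicates of 1 zone. It had 128, 14.4 and 6.59 CPM in control zone 3, 403 and 12.5 CPM in UV-B zone 3 and 59.5, 132 and 3.99 CPM in UV-B zone 2. Its 2 UV-B zones overlapped, although zone 3 was 3.03 times zone 2 within replicate 2 and 2.71 times within replicate 3 (CPM + 1). Replicate 2 was the high one in both zones.

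**Figure D2:**
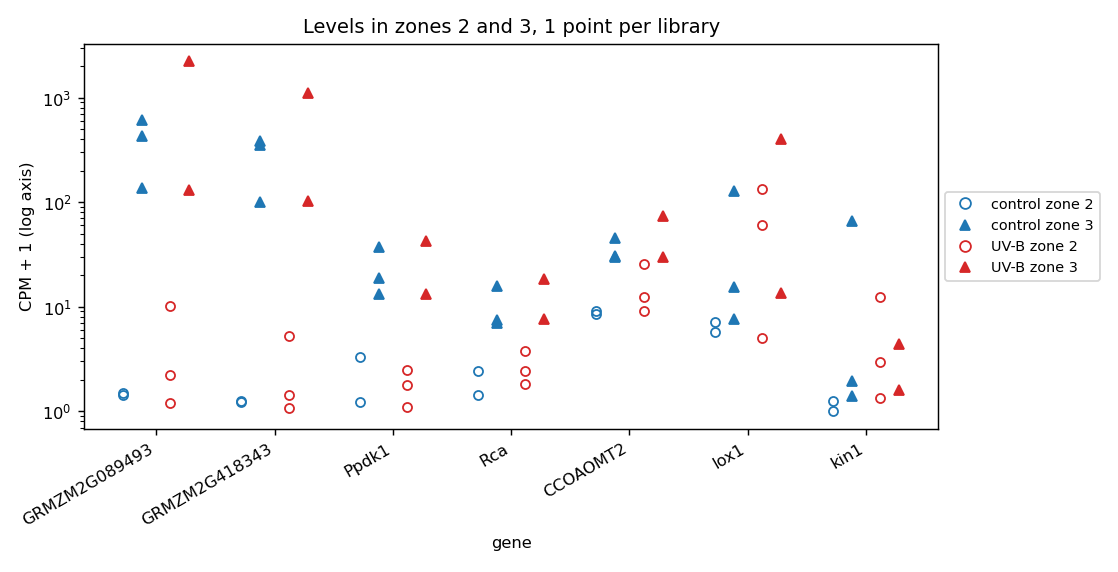
CPM + 1 on a log axis for 7 members in zones 2 (open circles) and 3 (filled triangles), control in blue and UV-B in red, 1 point per library. GRMZM2G089493, GRMZM2G418343, Ppdk1, Rca and CCOAOMT2 have UV-B zone 3 libraries above all UV-B zone 2 libraries, while those of lox1 and kin1 overlap, and the control zone 3 value of kin1 rests on 1 library at 64.8 CPM.

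The UV-B libraries allow the rise to be looked for in plants that the choice did not use. From UV-B zone 2 to UV-B zone 3 (3 and 2 libraries), all zone 3 libraries lay above all zone 2 libraries in 47 of 59 members, against 15.9% of the genes tested, and in no member were they all below. The ratio of the group means (CPM + 1) was at least 4 in 38 members, against 1.43% of the genes tested. It was 2 or more in 52 members, against 7.95% of the genes tested, and under 1 in 3, against 54.6%. Its median was 5.07, with a range of 0.539 to 257. Within replicate 2 the median ratio of zone 3 to zone 2 was 3.73, and within replicate 3 it was 5.84. The ratio was at least 2 in both replicates for 49 members, against 4.89% of the genes tested, and at least 4 in both for 22, against 0.791%. The labels do not say what libraries of the same number share.

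With edgeR's quasi-likelihood test on the UV-B libraries alone, which was the main test, 0 members and 0 of 21484 genes passed an adjusted p of 0.05 (Benjamini-Hochberg), a background of 0%. The filter on the control libraries admitted 58 members, and the smallest adjusted p among them was 0.124, which is also the smallest of all genes. At an unadjusted p under 0.05, 46 of 58 members were higher and 0 lower, against 9.11% of the genes tested that were higher. The median fitted log2 difference was 2.65 over the members and -0.06 over all genes. This test did not use the replicate number. Fits with that number as a block did call members, and their counts are given with the other settings below.

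DESeq2 on the same libraries called 40 of the members higher and 0 lower, of 57 with an adjusted p, and its background was 3.64%. When the 8 control libraries entered the edgeR fit for the estimate of the spread, 37 members were called against 4.32% of the genes, of which 36 were also among the 40. Those control libraries had chosen the members, so this count is not independent of the choice. The DESeq2 counts, those of the gene lists above included, rest on few libraries. Without UV-B zone 2 replicate 2, 20 members were called, and the number of all genes called higher fell as well. Both numbers also fell without UV-B zone 3 replicate 3. Zone 3 then has 1 library, which is assumed to vary like those of the other zones. The p-values measure the spread between libraries that the labels call biological replicates.

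For single members edgeR and DESeq2 gave close log2 differences and different p-values. GRMZM2G122302, which was chosen after its values were seen for having the smallest edgeR p, had 3.17, 2.45 and 3.58 CPM in UV-B zone 2 and 24.9 and 81.3 CPM in UV-B zone 3. Its log2 difference was 4.06 ± 0.49 (SE, edgeR adjusted p = 0.124) and 4.10 ± 0.56 by DESeq2 (adjusted p = 6.56e-10). For Ppdk1 the edgeR log2 difference was 5.02 ± 0.84 (adjusted p = 0.124), and DESeq2 gave an adjusted p of 1.39e-06. For GRMZM2G089493 it was 8.38 ± 1.66 (edgeR adjusted p = 0.124), with 0.000321 by DESeq2. For GRMZM2G069325, whose UV-B zone 2 replicate 3 already stood at 5.57 CPM against 0.211 and 0.216 CPM in the others, neither passed (edgeR adjusted p = 0.152, DESeq2 adjusted p = 0.0800).

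**Figure D3:**
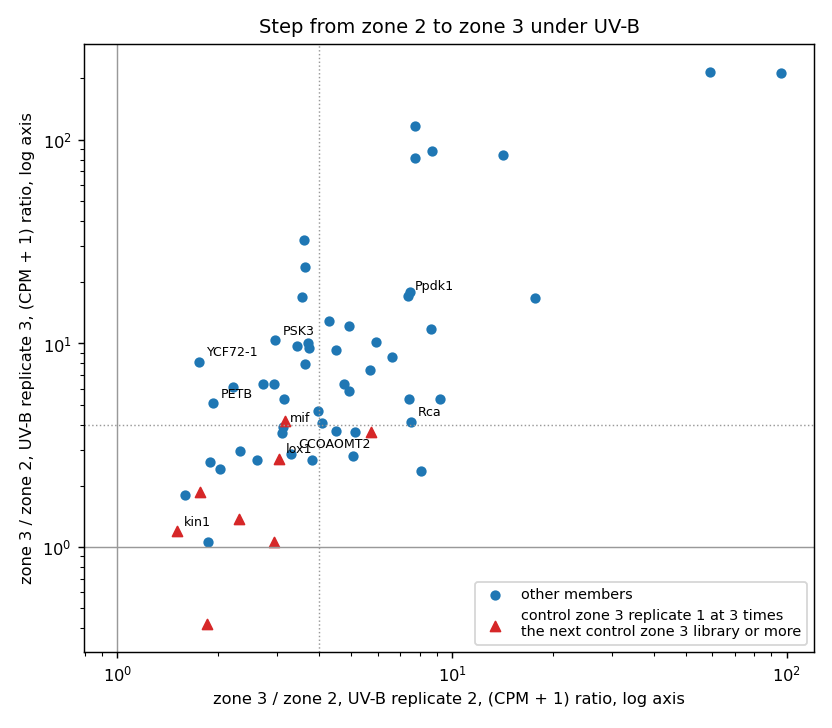
Ratio of zone 3 to zone 2 (CPM + 1, both axes log) within UV-B replicate 2 (horizontal) and within UV-B replicate 3 (vertical), 1 point per member. Solid lines mark a ratio of 1 and dotted lines a ratio of 4; 22 members exceed 4 in both replicates, and no member is under 1 in both. Red triangles are the 8 members whose control zone 3 replicate 1 was at least 3 times the next control zone 3 library.

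Control zone 3 replicate 1 stood apart in some members. Without it, 22 of the 59 did not meet the rule. DESeq2 called 7 of these 22 higher under UV-B, of 20 with an adjusted p, and in 12 the UV-B zone 3 libraries lay above all UV-B zone 2 libraries. In 8 members, control zone 3 replicate 1 was at least 3 times the next highest control zone 3 library. They are kin1, lox1, GRMZM2G145518, GRMZM2G133400, GRMZM2G074443, GRMZM2G093076, GRMZM2G035557 and GRMZM2G110504, a set formed after the values were seen, and of these only GRMZM2G110504 met the rule without that library. The gene named kin1 had 64.8, 0.389 and 0.964 CPM in control zone 3, so replicates 2 and 3 were under 1 CPM. Under UV-B it had 11.5, 1.94 and 0.333 CPM in zone 2 and 3.43 and 0.598 CPM in zone 3, and it was the member that did not pass the filter. GRMZM2G074443 had 31.9, 2.92 and 5.14 CPM in control zone 3 and 0.857 and 0.598 CPM in UV-B zone 3. It was the only member whose UV-B zone 3 libraries both lay under all control zone 3 libraries. GRMZM2G093076, on the same chromosome, had 25.4, 1.17 and 4.02 CPM in control zone 3 and 1.93 and 1.20 CPM in UV-B zone 3. By DESeq2 0 of the 6 with an adjusted p were called (background 3.64%), while kin1 and GRMZM2G074443 had none. In 2 of the 8 the UV-B zone 3 libraries lay above all UV-B zone 2 libraries (background 15.9%). No control zone 2 library of replicate 1 was analysed here.

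Beyond these 8, the smallest UV-B ratios were those of GRMZM2G074811 and GRMZM5G861479. GRMZM2G074811 had 20.4, 4.03 and 7.82 CPM in UV-B zone 2 and 8.36 and 8.37 CPM in UV-B zone 3, against 20.4, 1.95 and 12.9 CPM in control zone 3. Its UV-B zone 2 libraries thus overlapped with the control zone 3 libraries. GRMZM5G861479 had 7.18, 0.360 and 1.75 CPM in UV-B zone 2 and 3.22 and 8.96 CPM in UV-B zone 3. In both genes it was UV-B zone 2 replicate 1 that overlapped with zone 3.

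UV-B replicate 3 was the only UV-B replicate with all 3 zones, and there the members were not level between zones 1 and 2. Zone 2 was at least 1.5 times zone 1 (CPM + 1) in 51 of 59 members, against 19.2% of the genes tested, and within 0.67 to 1.5 in 8. The median ratio was 2.08. In control replicates 2 and 3, where the choice of the genes set it, the median was 1.15 and 1.26. GRMZM2G042181 went from 56.4 to 452 and then 2411 CPM across the zones of UV-B replicate 3, and GRMZM2G089493 from 0.0520 to 9.23 and then 2209 CPM. GRMZM2G107839 went from 0.0520 to 0.0832 and then 126 CPM. Its zone 1 and zone 2 values were 1 read each, under the 3 reads taken as the limit of detection. Whether it rose before zone 3 cannot be judged. Replicate 3 was the highest of the 3 UV-B zone 2 libraries in 42 members (71.2%), against 54.6% of the genes tested. With 1 UV-B zone 1 library this ratio has no replicate.

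**Figure D4:**
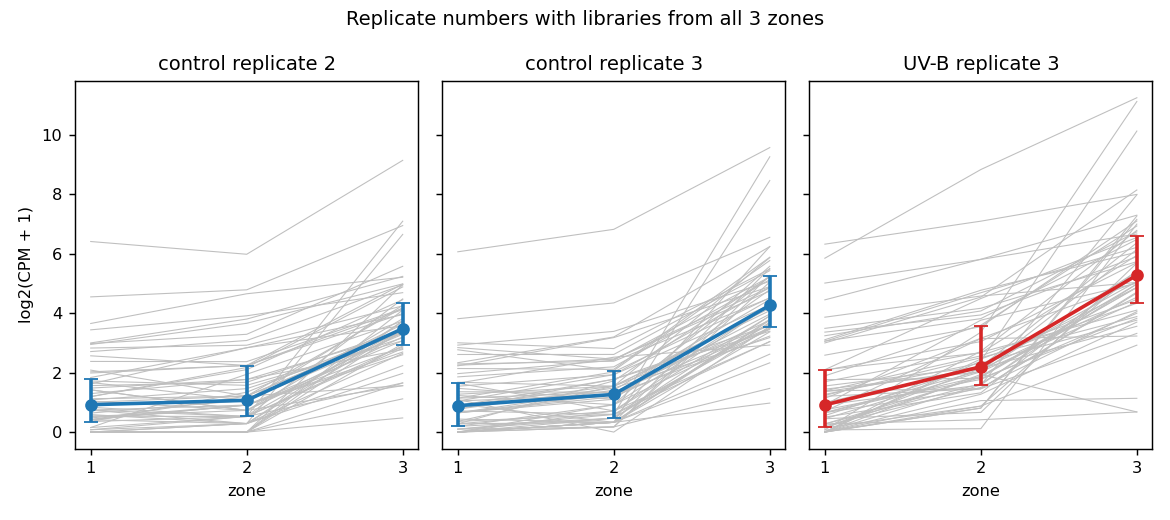
log2(CPM + 1) of the 59 genes (grey lines) in zones 1, 2 and 3 of the 3 replicates with all zones; coloured points are the median and bars the lower and upper quartile over the genes. The medians of control replicates 2 and 3 are nearly level from zone 1 to zone 2, by choice, while that of UV-B replicate 3 rises in both steps.

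UV-B replicate 3 also had the highest zone 3 levels. It was at least 2 times replicate 2 in UV-B zone 3 (CPM + 1) in 43 of 59 members, against 12.3% of the genes tested, and the highest of all 5 zone 3 libraries in 39, against 34.2%. The median ratio of replicate 3 to replicate 2 was 3.31 over the members and 1.08 over all genes tested. The summed level of the members was 1758 CPM in replicate 2 and 9099 CPM in replicate 3. Without GRMZM2G089493, GRMZM2G418343 and GRMZM2G042181 it was 1309 and 3370 CPM. Photosynthesis markers differed less between these libraries, with ssu1 at 387 and 504 CPM and FDX1 at 572 and 571 CPM, and RNRL2 was 14.8 and 7.77 CPM. The part of these differences in the members' levels was not tested.

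Control and UV-B leaves can be set side by side in zone 3, without a test, since the control values chose the genes. Replicate numbers run within a treatment and do not match across treatments. The sample titles number the control zone 3 libraries 3, 4 and 7, and the usable UV-B zone 3 libraries 8 and 9. No number is shared, so a difference between treatments in zone 3 cannot be told apart from one between title numbers. The UV-B mean was above the control mean in 43 of 59 members, against 50.4% of the genes tested. The median ratio was 1.48, against 1.00 over all genes tested. No member had both UV-B zone 3 libraries above all 3 control libraries, against 7.18% of the genes tested, and in 1 member the groups did not overlap in either direction, against 15.2%. In zone 2 the UV-B mean was above the control mean in 56 members, against 50.8% of the genes tested. The median ratio there was 1.62, against 1.01 over all genes tested, and low control zone 2 values had been a condition of the choice.

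The 201 genes that were higher in zone 2 than in zone 1 of the control leaf, and higher again in zone 3, serve for comparison. The UV-B zone 3 libraries were all above the UV-B zone 2 libraries in 176 of the 201 (87.6%) and in 79.7% of the 59. Over the genes tested this share was 15.9%. DESeq2 called 141 of the 201, and 40 of the 57 members with an adjusted p, against a background of 3.64%. The median UV-B ratio was 4.48 in the 201 and 5.07 in the 59. Zone 2 was at least 1.5 times zone 1 in UV-B replicate 3 in 195 of the 201, against 19.2% of the genes tested. The difference between the sets was not tested.

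The longest transcripts of the members had a median of 1406 bases, against 1781 over all genes tested, and 31 of them (52.5%) had a single transcript, against 49.1%. In positions of the deposited table, whose build is not given in the sources used here, 14 members lay on chromosome 5, which is 23.7% of the members against 11.4% of all genes. Of these, 4 lay between 209990118 and 210206387. GRMZM2G427444 (209990118 to 210014035) and YCF72-1 (210013735 to 210020221) overlap by 301 bases. The stretch from 209988180 to 210042720 holds 12 genes in the table, of which 8 carry names of plastid genes, such as PETD, YCF4, RPS18 and PSBZ.

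GRMZM2G427444 had 105, 28.4 and 53.4 CPM in control zone 3 and 78.0 and 31.1 CPM in UV-B zone 3. YCF72-1 had 13.4, 5.06 and 10.8 CPM in control zone 3 and 5.79 and 28.1 CPM in UV-B zone 3. Their neighbour PETD averaged 0.697, 3.51 and 12.3 CPM in control zones 1, 2 and 3. Reads of plastid transcripts could be counted at such nuclear copies, so the levels of these members and of PETB are uncertain, and the share of such reads was not tested. Elsewhere, GRMZM2G074443 and GRMZM2G093076 lay 13.4 kb apart on chromosome 4, and GRMZM2G074811 and GRMZM2G165069 4.88 kb apart on chromosome 7.

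The limits of the choice fell within a continuous series of values. Just inside, GRMZM2G165069, CCOAOMT2 and GRMZM2G160417 had control zone 3 to zone 2 ratios of 4.04, 4.03 and 4.00. Just outside, GRMZM2G360833, GRMZM2G327692 and GRMZM2G353313 had 3.96, 3.90 and 3.89. GRMZM2G160417, the last in rank, had 1.79, 1.66 and 2.49 CPM in UV-B zone 2 and 9.86 and 13.1 CPM in UV-B zone 3, and its ratio was 4.09 within replicate 2 and 4.05 within replicate 3. GRMZM2G165069 had 25.6, 18.5 and 54.8 CPM in UV-B zone 2 and 30.0 and 99.8 CPM in UV-B zone 3, where the groups overlapped.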

How the data were processed

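The authors deposited 1 table of counts, total reads and unique reads for each transcript, per the file headers. Library preparation used a stranded mRNA kit, per the labels' protocols. Neither the build nor the aligner is given in the sources at hand. Left out were 21 value columns, which belong to 3 libraries with no labelled sample.

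Total counts of 62892 transcripts were summed to 39145 genes and divided by the library total for CPM. Symbols came from the table and from RefSeq (Zm-B73-REFERENCE-NAM-5.0, names only), where 44 of 59 members matched a record. The main test was edgeR 4.0.16 (R 4.3.3), two-sided quasi-likelihood F test, on the 6 UV-B libraries without UV-B zone 3 replicate 1, in 3 zone groups with TMM scaling. Genes entered by filterByExpr over the control libraries. P-values were adjusted over all 21484 genes by Benjamini-Hochberg, with a threshold of 0.05. DESeq2 1.42.0 was an alternative. Standard errors came from the F statistic.

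Unique reads are counts that the authors assigned to 1 transcript. In genes with 1 transcript, 100% of the 196914 values above 0 were equal in both kinds of count (exact match), so in these genes they carry no sign of reads shared with other genes. In 28 members with 2 or more transcripts, 12 of them with a unique share under 10%, they mainly lose depth. The counting of reads shared by several genes is not given in the sources used here.

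Named genes are the first 10 by rank, up to 3 per gene list, the 5 smallest and 5 largest UV-B ratios, the 3 on each side of the limit, and members with a name; any other is named as chosen after its values were seen or for the count it belongs to. The members and lists were chosen with earlier results of these data known, and wrong matches of symbol patterns were removed after levels had been seen. Counting limits cover counting error only. The scripts were tested on simulated data.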

Additional observations from a re-analysis of the deposited data

Results flagged for a closer look

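UV-B zone 3 replicate 1, which took no part in the comparisons, held 8 reads of the members among 728, or 1.10% of its reads. The share was 0.164% to 0.347% in the control zone 3 libraries and 0.176% and 0.910% in the other UV-B zone 3 libraries. The 8 reads belonged to GRMZM2G042181 (6 reads) and GRMZM2G089493 (2 reads).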

How the results depend on the processing

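The number of members called higher in UV-B zone 3 than in UV-B zone 2 depended on the fit, and no fit called a member lower. It was 0 in the main edgeR test, with RLE scaling, with the filter on UV-B libraries and with unique reads, and 22 of 59 with no filter (166 genes higher and 166 lower), 40 with DESeq2 (752 and 600), 37 with 14 libraries in 6 groups (929 and 836), and 41 with UV-B zone 3 replicate 1 kept (450 and 502). Leaving out each UV-B library in turn gave 0 members and 0 to 1 genes higher with edgeR. With DESeq2, an alternative added after the data were seen, as was the next, it gave 34 members without zone 2 replicate 1 (657 genes higher and 576 lower), 20 without zone 2 replicate 2 (166 and 98), 41 without zone 2 replicate 3 (627 and 486), 33 without zone 3 replicate 2 (575 and 838) and 5 without zone 3 replicate 3 (93 and 147). The fit of 14 libraries without control zone 3 replicate 1 gave 33 members (767 and 738 genes). With the replicate number as a block, 53 members were called in the UV-B libraries (2420 genes higher and 2688 lower) and 53 in the 14 libraries (2649 and 2748). Same-numbered UV-B libraries of zones 2 and 3 had correlated deviations (0.353 and 0.470). Same-numbered control libraries had 0.392, 0.201 and 0.347 between zones 1 and 3, 0.635 and 0.574 between zones 1 and 2, and 0.027 and 0.354 between zones 2 and 3. The UV-B comparison has only 2 usable pairs and the labels do not say what a number shares, so the main test did not pair the libraries. The ratios within a replicate in the Results compare libraries of the same number as a description.

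The median log2 difference of the members was 2.44 to 2.81 under the settings that kept all libraries and 1.82 to 3.56 when 1 UV-B library was left out, lowest without UV-B zone 3 replicate 3. The count of members with no overlap was 38 with unique reads, 47 to 55 when 1 library was left out, and 1 with UV-B zone 3 replicate 1 kept, where 3 reads are worth 4121 CPM. The share over all genes was not computed for these settings. With 1 library fewer, the condition is easier to meet for any gene. Of 457 values of 23 single genes under the alternatives, 12 changed sign. They were GRMZM2G074811 (0.71 and 0.71 with the block, 0.61 and by DESeq2 0.64 without UV-B zone 2 replicate 1), GRMZM2G074443 (0.52 and 0.41 with the block, 6.0 and 5.49 with UV-B zone 2 replicate 3 left out, 0.09 and 0.16 with UV-B zone 3 replicate 3 left out) and lox1, GRMZM2G156861 (-2.52 and -2.47 without UV-B zone 3 replicate 2). Leaving out 1 library at a time gave -0.81 to 0.61, -0.74 to 5.995 and -2.52 to 2.69 for these genes with edgeR.

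The choice itself gave 59 genes with TMM-scaled sizes (58 of them members), 44 with an offset of 0.1 CPM (33 members), 22 with a step of at least 8, and 87 with unique reads (32 members). Leaving out 1 control library gave 40 to 98 genes, with 98 without replicate 2 of control zone 2, 92 without its replicate 3 and 40, of them 37 members, when control zone 3 replicate 1 was dropped. Without both libraries of control replicate 1, 38 genes met it, 33 of them members. The comparison of promoter motifs was not run, as no sequences were used here. In zone 1, 3 reads were worth 0.156 to 0.269 CPM, in zone 2 they were worth 0.216 to 0.657 CPM. In the usable zone 3 libraries they were worth 0.482 to 1.79 CPM, most in UV-B zone 3 replicate 3. Levels near these limits rest on few reads.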
